A study of Oryctolagus cuniculus with 39 samples.

Results

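Whole interscapular brown adipose tissue (total iBAT) was compared with the stromal vascular fraction (SVF) of the same depot in rabbits 1 day after birth. The comparison used 6 of the 39 samples of the study, 3 bulk RNA-seq libraries of each fraction, all from New Zealand White rabbits with no allele or treatment named in the labels. The study as a whole holds 36 bulk libraries from animals of 1 day to 12 weeks and 3 single-cell samples, which were not analysed here. The labels do not say that libraries came from separate animals or whether animals were pooled, so the p-values measure the spread between these samples, which may be technical. The 2 fractions were deposited in tables that were normalized apart, so fraction and table cannot be told apart in any difference at day 1.

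Genes were taken when both tables listed them and when their FPKM (mapped fragments scaled to transcript length and library size, a level per length) was 1 or more in at least 3 of the 6 libraries. This left 12158 of the 19625 shared genes. Each library was scaled by its median ratio to the geometric mean of the 6, and all levels below are scaled FPKM unless said otherwise. Differences are on the log2(FPKM + 1) scale, total minus SVF, with their standard error (SE), and understate the change of low genes. A gene was called at a Benjamini-Hochberg adjusted p under 0.05 in limma's moderated test.

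Brown fat makes heat. Its adipocytes burn fatty acids in dense mitochondria whose proton gradient is short-circuited by the uncoupling protein UCP1, and noradrenaline acting through β-adrenergic receptors and cyclic AMP switches this on; in newborn rabbits the interscapular depot is a classical site of it. Whole tissue holds these adipocytes together with everything around them, while an SVF is by definition what remains once the floating fat cells are taken away: fibroblasts and adipocyte progenitors, vessel wall cells, blood and immune cells and nerve sheath. How the fraction was prepared here is not given in the sources used here.

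Of the 12158 genes, 7844 (64.5%) were called, 3695 (30.4%) higher in total and 4149 (34.1%) higher in the SVF, and the median difference was -0.07. A further condition of at least 2-fold left 4374 genes (36.0%). All 3 total libraries lay above all 3 SVF libraries in 33.3% of genes, and all 3 SVF libraries above all 3 total libraries in 37.2%. Of the genes tested, 351 passed the filter through the total libraries alone and 613 through the SVF libraries alone, so their direction was set by the filter; of the other 11194, 29.9% were higher in total and 31.6% in the SVF. Among genes named below this holds for DIO2, ADRB3, KLB and TLR2 (total) and for ZIC1, IRF4, CXCL8, IL6, IL1A and IL1B (SVF), whose values are a description. The split between directions depended on the scaling: 3148 were higher in total and 4861 in the SVF with upper quartile scaling (median difference -0.23), and 2092 and 6571 with scaling to 10 housekeeping genes (median difference -0.59), 7 of which were themselves called higher in total here. In bulk RNA, fewer cells of a type and less RNA per cell cannot be told apart. Relative depth, read from the spacing of low FPKM values, ranged from 0.852 to 0.949 in total and from 1.032 to 1.262 in the SVF. Replicates correlated at 0.974 to 0.977 in total and 0.960 to 0.970 in the SVF, against 0.679 to 0.730 between fractions.

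Most genes of heat production were higher in whole tissue. Of 29 tested genes on a list of thermogenic and brown-fat genes, 22 were higher in total, 4 were higher in the SVF and 3 were not called, with a median difference of 2.34. Without the 6 members that passed the filter through 1 fraction alone, 18 of 23 were higher in total and 2 in the SVF. UCP1 stood at 4706, 5058 and 5918 FPKM in the 3 total libraries and at 21.9, 6.14 and 50.2 in the 3 SVF libraries. The SVF mean was 0.499% of the total mean, and the difference was 8.0 ± 0.59 (SE, adjusted p = 1.11e-05), the largest toward total among the genes named by the rule. The lowest total library lay far above the highest SVF library, and the SVF libraries spread more among themselves than the total libraries did. CIDEA, a lipid droplet protein abundant in brown fat, gave 879, 931 and 569 in total and 5.34, 2.76 and 10.2 in the SVF (6.91 ± 0.37, adjusted p = 2.01e-06). Its SVF replicate 2 was the lowest and replicate 3 the highest, the same order as for UCP1.

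Members called higher in total kept between 0.499% and 55.2% of their total level in the SVF. DIO2, the deiodinase that makes active thyroid hormone inside the cell, was 42.8, 43.3 and 29.8 in total and 0.35, 0.14 and 0.49 in the SVF (4.89 ± 0.19). PPARGC1A, a coactivator of mitochondrial genes, was 47.1, 35.9 and 55.3 against 1.22, 0.62 and 0.71 (4.67 ± 0.20, adjusted p = 7.41e-07). The groups did not overlap for either gene, and the SVF means were 0.849% and 1.84% of the total means. FABP3, a fatty acid carrier, kept 3.83% of its total level in the SVF, COX7A1, a cytochrome c oxidase subunit of heart and brown fat, 3.93%, and CPT1B, the gate for fatty acids into mitochondria, 3.07%. Potassium channel KCNK3, glycerol kinase GK and GMP reductase GMPR kept 1.19%, 1.24% and 1.28%, while the coactivator PPARGC1B kept 14.5% and the nuclear receptor ESRRA 27.7%.

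The transcription factors that mark the brown lineage did not all follow the effectors. LHX8, a homeobox gene used as a classical brown fat marker, was 0.19, 1.31 and 1.99 in total and 5.99, 10.5 and 11.9 in the SVF, with a difference of -2.32 ± 0.36 (adjusted p = 0.000649). All 3 SVF libraries were above all 3 total libraries. ZIC1, a zinc finger factor of the same class of markers, was low throughout, at 0 to 0.58 in total and 1.4 to 2.17 in the SVF, and passed the filter through the SVF alone. TBX15 was 6.34 to 8.29 in total and 18.3 to 25.0 in the SVF, and IRF4, a factor of fasting and thermogenic responses that immune cells also express, 0.28 to 0.34 and 3.98 to 6.30. Markers of immune cells were higher in the SVF too (below), and their part in the value of IRF4 was not tested. PRDM16, the coregulator that sets brown identity, was 3.68, 4.89 and 2.92 in total and 2.55, 1.92 and 3.15 in the SVF. Its groups overlapped and it was not called (0.44 ± 0.21, adjusted p = 0.0926; -0.02 with housekeeping scaling), although it was called without total replicate 3 (0.60, adjusted p = 0.0467). EBF2, a factor of committed brown precursors, was called higher in total by only 0.81 ± 0.16 (adjusted p = 0.00271), with 21.1 to 29.4 in total and 12.5 to 15.6 in the SVF, and was not called with housekeeping scaling (0.22, adjusted p = 0.277).

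**Figure D1:**
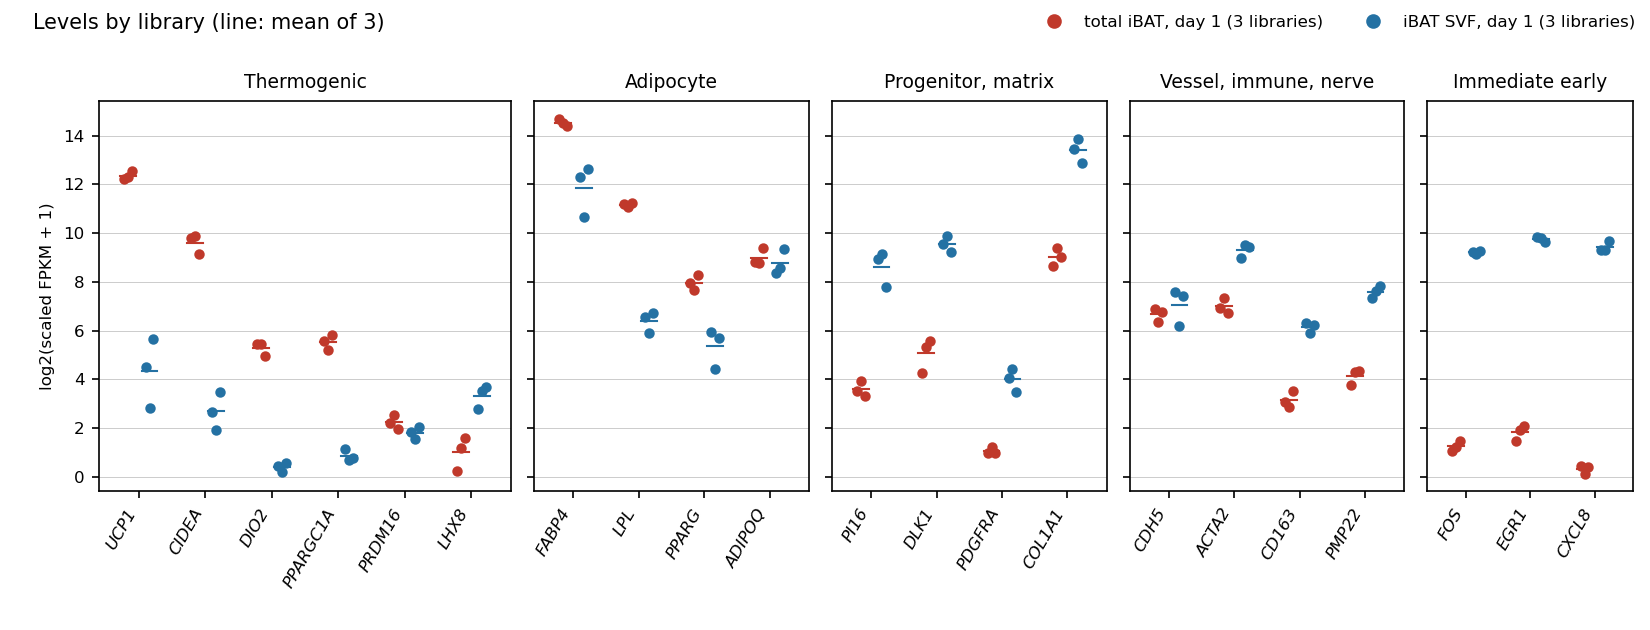
Levels of 21 genes in the 6 libraries, as log2(scaled FPKM + 1) on the vertical axis; each point is 1 library, each short line the mean of the 3 libraries of a fraction, red for total iBAT and blue for the iBAT SVF. UCP1, CIDEA, DIO2 and PPARGC1A are far higher in total, PRDM16, ADIPOQ and CDH5 overlap, and LHX8, the progenitor, matrix and nerve genes and the immediate early genes are higher in the SVF.

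General adipocyte genes were also higher in total, but the amount left in the SVF varied widely from gene to gene. Of 29 tested genes for lipid storage, lipid handling and adipocyte identity, 26 were higher in total and none in the SVF. The median was 2.60. Without the 2 members that passed the filter through total alone, 24 of 27 were higher in total. The SVF level over the 29 ranged from 0.661% to 87.8% of total. The phosphoenolpyruvate carboxykinase PCK1, which makes glycerol for triglyceride, was 624, 635 and 952 in total and 3.88, 1.19 and 9.54 in the SVF (7.23 ± 0.49, adjusted p = 6.80e-06). DGAT2, which closes triglyceride synthesis, kept 1.23% in the SVF, CIDEC, which fuses droplets, 1.33%, hormone-sensitive lipase LIPE 2.60%, and lipoprotein lipase LPL 3.74%. For LPL the levels were 2320, 2150 and 2400 in total against 92.3, 59.5 and 105 in the SVF.

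Other adipocyte genes kept more of the whole-tissue level. The fatty acid carrier FABP4 was 26557, 23270 and 21273 in total and 5092, 1630 and 6278 in the SVF, which is 18.3% (2.66 ± 0.48, adjusted p = 0.00139). The fatty acid transporter CD36 kept 19.3%, with 833, 250 and 924 in the SVF, and PPARG, the master regulator of fat cell formation, 17.5%, with 60.8, 20.5 and 51.5. In FABP4, CD36 and PPARG SVF replicate 2 was the lowest library; the lipase coactivator ABHD5, which kept 18.8%, was even across the SVF libraries at 9.97, 9.89 and 9.03. Endothelial cells are known to express FABP4 and CD36, and the summed level of the endothelial markers was also lowest in SVF replicate 2 (793, against 1484 and 1298 in the others); their part in these values was not tested.

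Adiponectin was 1 of 3 listed genes whose fractions overlapped. ADIPOQ, the main adipocyte hormone, was 453, 435 and 668 in total and 331, 380 and 654 in the SVF, so that the ranges overlapped and the SVF mean was 87.8% of the total mean. The difference was 0.22 ± 0.28 (adjusted p = 0.506) and changed sign with housekeeping scaling (-0.39). It ranged from 0.02 to 0.52 when 1 library at a time was left out. The fatty acid carrier FABP5 (0.37 ± 0.26, adjusted p = 0.243) and the monoglyceride lipase MGLL (0.81 ± 0.39, adjusted p = 0.105) also overlapped and were not called; the SVF kept 79.5% and 62.7%. Leptin (LEP) was too low to be tested, and the adipocyte triglyceride lipase PNPLA2 and the droplet protein PLIN5 were not found by symbol.

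**Figure D2:**
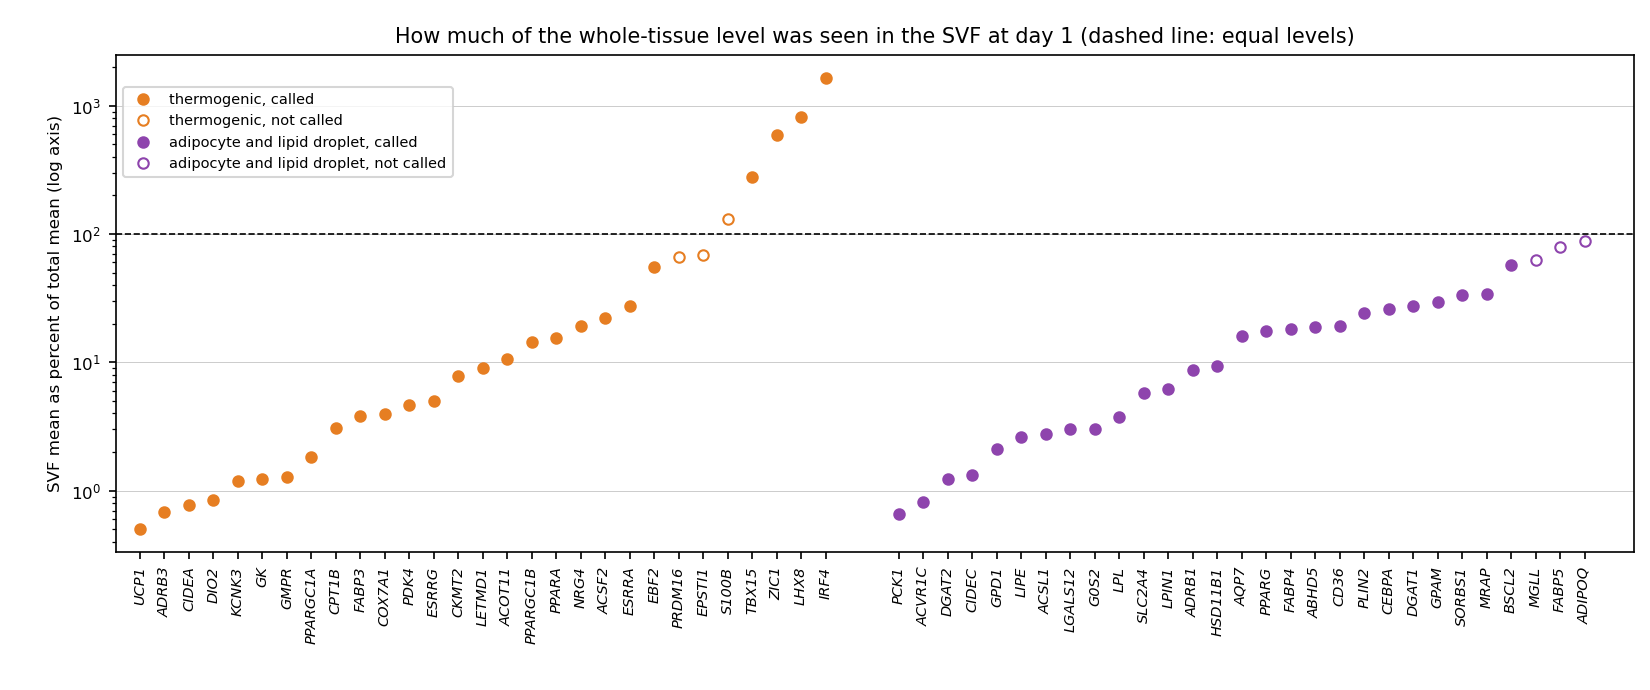
Mean SVF level as a percentage of the mean total level (log axis) for the 29 tested thermogenic genes (orange) and the 29 tested adipocyte and lipid droplet genes (purple), ordered within each list; filled points were called and open points were not, and the dashed line marks equal levels. The thermogenic genes run from UCP1 at 0.499% to IRF4 at 1648%, and the adipocyte genes from PCK1 at 0.661% to ADIPOQ at 87.8%.

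The machinery that burns fat was higher in total almost gene by gene. Of 21 tested genes of fatty acid oxidation 20 were higher in total and none in the SVF. The median was 4.81, the highest of any list examined. Without the 1 member that passed the filter through total alone, 19 of 20 were higher in total. ACADL, the long-chain acyl-CoA dehydrogenase, reached 6209, 7881 and 6677 in total and 68.2, 69.6 and 119 in the SVF (6.36 ± 0.24, adjusted p = 4.14e-07). DECR1, needed to oxidise unsaturated fatty acids, was 1209, 1401 and 1483 against 11.7, 12.5 and 20.6 (6.46 ± 0.21, adjusted p = 3.17e-07). Neither gene came near overlap, and the SVF kept 1.24% and 1.09%. ECI2 was the member not called, with 6.07 to 7.72 in total and 6.04 to 7.16 in the SVF.

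All 19 citric acid cycle and pyruvate dehydrogenase genes tested were higher in total (median 3.77), with SVF levels of 1.82% to 17.1%. Citrate synthase (CS) was 1910, 2189 and 2667 in total and 84.6, 83.3 and 90.5 in the SVF. SUCLA2, a subunit of the ATP-forming succinyl-CoA synthetase, kept the least, at 1022, 1353 and 1435 in total and 19.7, 21.4 and 28.4 in the SVF (5.72 ± 0.19, adjusted p = 3.17e-07). Of the 14 genes for the use of branched-chain amino acids, a fuel of brown fat, 13 were higher in total (median 3.71). The exception, the mitochondrial aminotransferase BCAT2, was low in both, at 0.61 to 1.2 in total and 1.44 to 2.68 in the SVF (-0.75 ± 0.21, adjusted p = 0.0119).

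Respiratory chain and ATP synthase genes were higher in total with 2 exceptions. Of 44 tested nuclear genes 42 were higher in total and none in the SVF (median 3.60), and the median SVF level was 8.01% of total. The complex III iron-sulphur protein UQCRFS1 kept 3.29% and the complex II flavoprotein SDHA 4.31%, while the small subunits NDUFA8 and COX8A kept 16.4% and 17.2%. ATP synthase, which brown fat is known to hold little of relative to its respiratory chain, did not move as a unit. Its catalytic subunits ATP5F1A and ATP5F1B kept 6.43% and 6.79%, ATP5MC1 and ATP5MC3, which encode the membrane ring, 68.8% and 94.7%, and the coupling factor ATP5PF 92%. ATP5MC3 was 88.3, 86.5 and 101 in total and 95.7, 96.2 and 69.6 in the SVF, and was not called (0.09 ± 0.16, adjusted p = 0.645), nor was ATP5PF (0.12, adjusted p = 0.442). COX7B, a cytochrome c oxidase subunit, had the largest difference of the list (7.17 ± 1.15, adjusted p = 0.000756), but its SVF values were 0, 11.6 and 46.1, the first listed at 0, so its size is uncertain.

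Sugar and lipid synthesis differed less. Of 17 glycolytic genes 12 were higher in total and 2 in the SVF (median 0.97), and with housekeeping scaling the counts were 7 and 4. ALDOC kept 2.40%, with 391, 431 and 457 in total and 9.34, 7.16 and 14.1 in the SVF, while the aldolase ALDOA was not called (0.65 ± 0.27, adjusted p = 0.0676). Hexokinase HK2 was higher in the SVF, at 28.9, 35.2 and 30.2 against 8.50, 14.4 and 15.6 (-1.27 ± 0.22, adjusted p = 0.00115). Of 17 genes of fatty acid synthesis, 11 were higher in total and 4 in the SVF (median 0.88). With housekeeping scaling 8 and 5 were. Without the 1 member that passed the filter through total alone, the counts were 10 and 4 of 16. THRSP, a lipogenic regulator, was 632, 570 and 751 in total and 3.19, 1.03 and 8.19 in the SVF (7.24 ± 0.46, adjusted p = 4.78e-06). ACLY, which makes cytosolic acetyl-CoA, kept 25.4%, and the desaturase FADS2 was higher in the SVF (-1.08 ± 0.24, adjusted p = 0.00433).

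**Figure D3:**
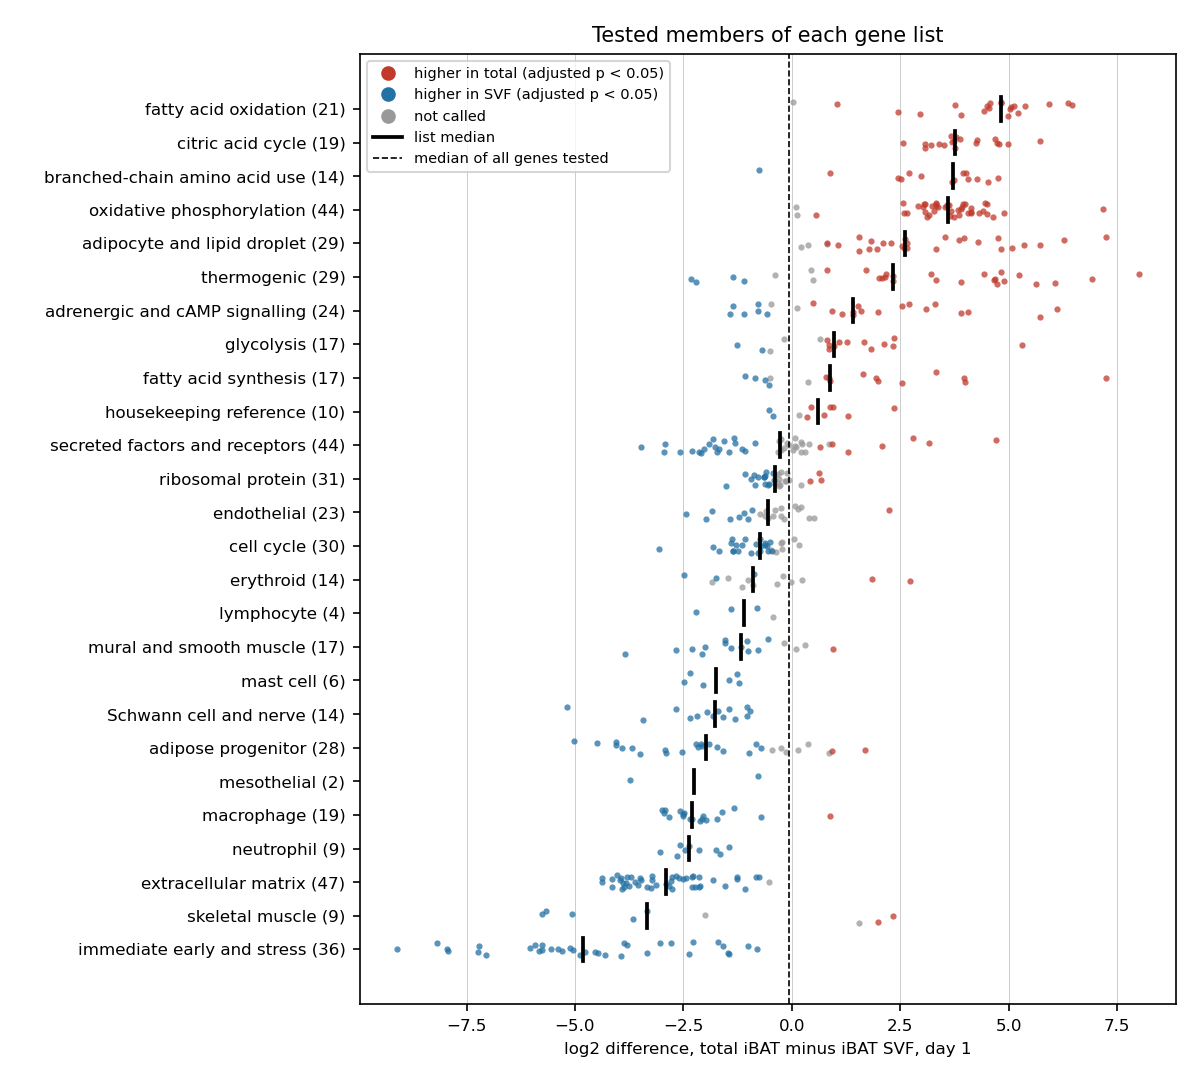
Difference between fractions (log2, total iBAT minus iBAT SVF; horizontal axis) of every tested member of 26 gene lists, with the number of tested members in brackets; red points were called higher in total, blue points higher in the SVF, grey points not called, black bars are list medians and the dashed line is the median of all genes tested, -0.07. List medians run from 4.81 for fatty acid oxidation to -4.82 for immediate early and stress genes.

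Receptors and second messengers of the adrenergic switch were split. Of 24 tested genes of adrenergic and cyclic AMP signalling 16 were higher in total (66.7%, against 30.4% of all genes). Another 6 were higher in the SVF (25.0%, against 34.1%), and the median was 1.41. Without ADRB3, which passed the filter through total alone, the counts were 15 and 6 of 23. ADRB3, the β3 receptor of adipocytes, was 11.9, 14.4 and 21.5 in total and 0.05, 0.11 and 0.17 in the SVF (3.89 ± 0.22). ADRB1 kept 8.65% and the α1 receptor ADRA1A 5.03%. PRKAR2B, the regulatory subunit of protein kinase A in fat, was 537, 691 and 602 against 6.94, 5.85 and 11.2 (6.12 ± 0.22, adjusted p = 3.79e-07), and the phosphodiesterase PDE3B, through which insulin lowers cyclic AMP, kept 1.18%. The phosphodiesterase PDE4D was higher in total (3.09 ± 0.17) and PDE4B in the SVF (-1.43 ± 0.17).

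On the stromal side, collagens and other matrix genes were higher in the SVF with 1 exception. Of 47 tested matrix genes 46 were higher in the SVF and none in total, with a median of -2.89; COL15A1 alone was not called (-0.52 ± 0.23, adjusted p = 0.0795). COL1A1, a chain of fibrillar type I collagen, was 401, 667 and 515 in total and 11332, 14769 and 7498 in the SVF (-4.38 ± 0.30, adjusted p = 6.42e-06). COL3A1 was 500, 938 and 794 against 11041, 18394 and 10324. SVF replicate 2 was the highest for both, and no SVF library came near the total libraries. The matrix list took 9.98% to 17.2% of the summed FPKM of an SVF library and 0.959% to 1.17% of a total library. Periostin (POSTN), decorin (DCN) and fibronectin (FN1) differed by -3.48, -3.14 and -3.92. The basement membrane chains COL4A1 and COL4A2 differed less, by -0.75 and -1.26, and laminin chain LAMA4 by -0.83.

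Adipose progenitor markers were mostly, but not all, higher in the SVF. Of 28 tested, 20 were higher in the SVF and 2 in total (median -1.98). PI16, a marker of early mesenchymal progenitors, was 10.5, 14.3 and 8.98 in total and 487, 560 and 221 in the SVF (-5.02 ± 0.34, adjusted p = 6.30e-06). DLK1, which holds preadipocytes undifferentiated, was 18.4, 39.3 and 47.2 against 750, 949 and 597. PDGFRA, the receptor that defines the lineage, was 0.98, 1.36 and 0.97 against 15.7, 20.6 and 10.3 (-2.93 ± 0.24, adjusted p = 1.88e-05). In each of these 3 genes SVF replicate 3 was the lowest SVF library and still lay above every total library.

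DPP4, often used beside PI16 for the same progenitors, was 17.2, 28.6 and 23.5 in total and 16.3, 20.2 and 15.6 in the SVF. It was not called (0.37 ± 0.20, adjusted p = 0.135; -0.21 with housekeeping scaling). It was called higher in total without total replicate 1 (0.57, adjusted p = 0.0272) and with ADORA1 and LOC100009266, a large share of the FPKM, left out (0.51, adjusted p = 0.0341). The retinaldehyde dehydrogenase ALDH1A1 and the growth factor IGF1 were higher in total, at 1.69 ± 0.42 (adjusted p = 0.00778) and 0.92 ± 0.13 (adjusted p = 0.000364). The surface proteins CD34, THY1 and CD248 were all higher in the SVF, at -2.09, -4.06 and -4.06.

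Vessel genes were mixed. Of 23 endothelial genes 8 were higher in the SVF (34.8%, against 34.1% of all genes), 1 was higher in total (4.35%, against 30.4%) and 14 were not called (median -0.56). The junction proteins PECAM1 and CDH5, found on all endothelium, were not called: CDH5 was 118, 81.8 and 109 in total and 193, 72.5 and 170 in the SVF (-0.39 ± 0.35, adjusted p = 0.354). Without SVF replicate 2, in which CDH5 was lowest, 14 endothelial genes were higher in the SVF, CDH5 (-0.83, adjusted p = 0.00556) and PECAM1 (-0.54, adjusted p = 0.015) among them, and 16 were with housekeeping scaling. Lymphatic genes were among those called with all libraries: LYVE1 was 17.3, 27.1 and 25.0 against 115, 154 and 117 (-2.43 ± 0.20, adjusted p = 1.82e-05), PROX1 differed by -1.97 ± 0.23 and FLT4 by -1.43 ± 0.21. VWF, of larger vessels, was 8.20, 6.37 and 6.68 against 33.4, 26.2 and 24.2 (-1.83 ± 0.17, adjusted p = 3.38e-05). EHD3, an endocytic trafficking gene, was the member higher in total (2.23 ± 0.24, adjusted p = 8.53e-05).

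Of 17 mural and smooth muscle genes 13 were higher in the SVF and 1 in total (median -1.17). The contractile genes ACTA2, TAGLN and MYH11 differed by -2.30 ± 0.21, -2.01 ± 0.18 and -2.06 ± 0.32; ACTA2 was 122, 161 and 104 in total and 501, 735 and 682 in the SVF. The pericyte gene RGS5 was the one higher in total, at 73.4, 59.8 and 43.5 against 26.9, 21.3 and 44.4, with overlapping ranges (0.95 ± 0.28, adjusted p = 0.0181). Its call was lost with housekeeping scaling (0.35, adjusted p = 0.311) and without any 1 of 3 libraries: total replicate 1 (adjusted p = 0.0631), total replicate 2 (0.0503) or SVF replicate 1 (0.0602). The largest difference of the list, desmin (DES), was 72.1, 97.8 and 13.0 in the SVF, a pattern shared with the skeletal muscle genes below, and their part in it was not tested.

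Immune genes were higher in the SVF. Of 19 macrophage genes 18 were higher in the SVF and 1, the Toll-like receptor TLR2, in total (median -2.31); of the 16 that did not pass the filter through 1 fraction alone, 16 were higher in the SVF. The haemoglobin scavenger receptor CD163 was 7.47, 6.37 and 10.4 in total and 79.0, 58.9 and 74.4 in the SVF (-3.0 ± 0.19, adjusted p = 5.30e-06), and the growth factor receptor CSF1R 3.54 to 5.19 against 33.5 to 44.0. Of 9 neutrophil genes tested, 5 passed the filter through the SVF alone; the other 4 were higher in the SVF (median -2.55), with S100A8 at 6.66 to 9.62 against 35.8 to 71.0. The summed level of the macrophage list was 101 to 194 in total and 667 to 840 in the SVF.

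Nerve sheath genes were higher in the SVF: 2 of the 14 Schwann cell genes tested passed the filter through the SVF alone, and the other 12 were all called higher there (median -1.76). PMP22, a protein of peripheral myelin, was 12.7, 18.8 and 19.5 in total and 159, 195 and 227 in the SVF (-3.44, adjusted p = 2.87e-06). The groups did not overlap, SVF replicate 3 was the highest library, and the summed list was 522, 651 and 1056 in the 3 SVF libraries.

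**Figure D4:**
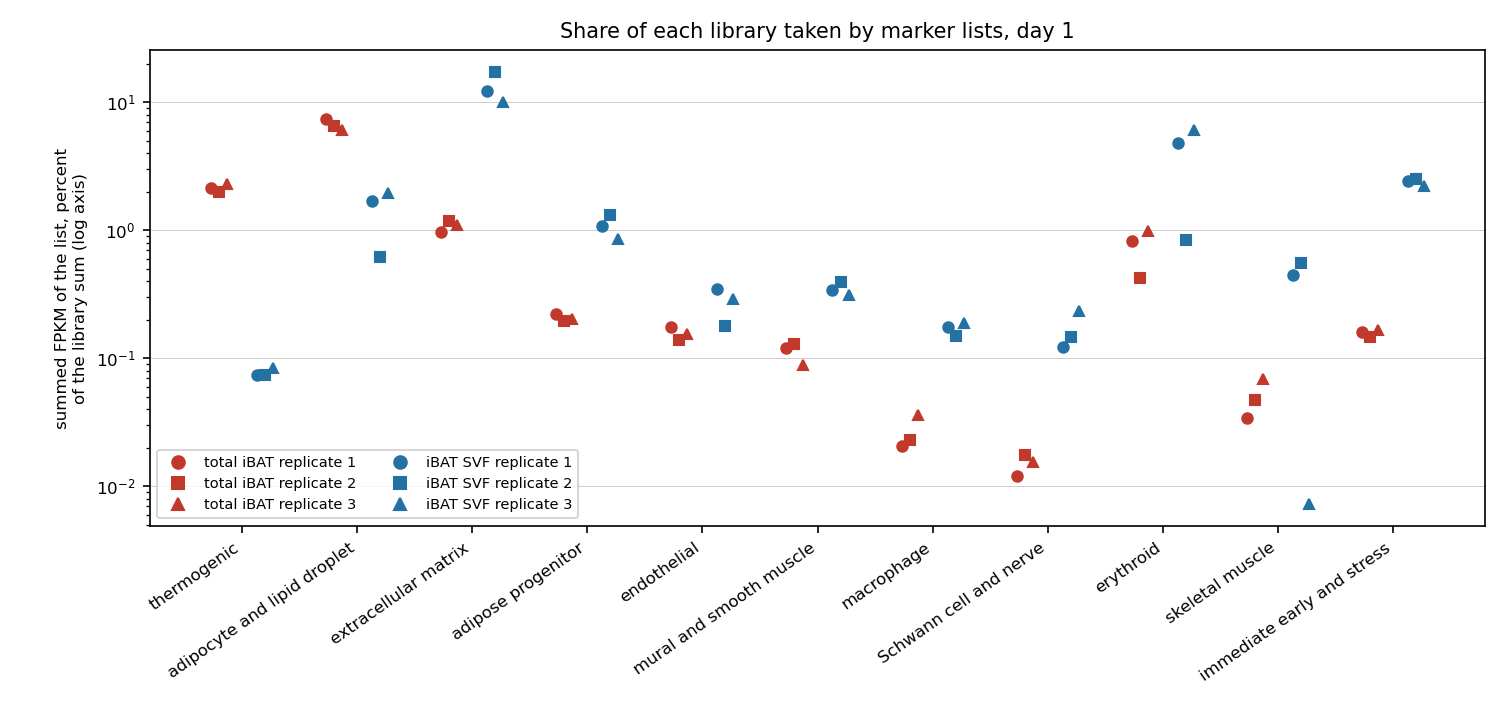
Summed FPKM of 11 marker lists as a percentage of the library's summed FPKM (log axis), for each total library (red) and SVF library (blue), with replicates shown by symbol. Thermogenic and adipocyte lists are higher in total. Among the SVF libraries, replicate 2 is lowest for the adipocyte (0.614%) and erythroid (0.834%) lists and replicate 3 for skeletal muscle (0.00725%).

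Blood and muscle transcripts varied widely between the SVF libraries. Of 14 erythroid genes 3 were higher in the SVF (21.4%, against 34.1% of all genes), 2 in total (14.3%, against 30.4%) and 9 were not called. The globin gene HBB2 was 3554, 1880 and 4654 in total and 19299, 3121 and 23714 in the SVF (-1.84 ± 0.73, adjusted p = 0.0544), and without SVF replicate 2 it was called (-2.77, adjusted p = 0.000286), as were 10 of the 14 listed genes in that direction. The count was 8 with the replicate number as a block, 6 with all 24 iBAT libraries in the fit and 5 with housekeeping scaling. HBB2 was called in those 3 as well (adjusted p = 0.00336, 0.0145 and 0.0142), with upper quartile scaling (0.039) and with a minimum FPKM of 5 (0.0495). Muscle actin ACTA1 was 2.84, 4.76 and 2.31 in total, 814 and 1036 in SVF replicates 1 and 2 and 12.4 in SVF replicate 3. The difference of ACTA1 was -5.75 (adjusted p = 0.0079). Of 9 muscle genes tested 5 were higher in the SVF (55.6%, against 34.1% of all genes) and 2 in total (22.2%, against 30.4%). MYBPC1 and TNNT1 passed the filter through the SVF alone, and of the other 7 genes 3 were higher in the SVF and 2 in total. Without SVF replicate 1, 6 were tested, with 1 higher in the SVF and 1 in total. Without SVF replicate 2, 6 were tested, with 2 higher in the SVF and 2 in total. Creatine kinase CKM was 67.7, 106 and 248 in total and 119, 146 and 3.12 in the SVF, overlapped, and was not called (1.55, adjusted p = 0.299; -0.12 without SVF replicate 3).

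Immediate early and stress genes gave the lowest median of any list. Of the 10 genes named for the largest differences toward the SVF, 7 were on this list. The others were the cytokine genes IL1B and IL1A and C13H1orf162. CXCL8 and IL6 among the 7, and IL1B and IL1A, passed the filter through the SVF alone. The list was chosen with earlier results of these data known, so this overlap is a description. Of the 36 tested, 7 passed the filter through the SVF alone, and the other 29 were all called higher in the SVF, with a median of -4.48 (-4.82 over the 36). FOS, a transcription factor gene switched on within minutes of a stimulus, was 1.08, 1.37 and 1.8 in total and 590, 570 and 623 in the SVF (-7.95 ± 0.14, adjusted p = 3.72e-08). EGR1 was 1.82, 2.77 and 3.21 against 914, 881 and 800 (-7.93 ± 0.17, adjusted p = 6.99e-08). The libraries of each fraction lay close together, and the gap between fractions was many times their spread.

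Cytokine genes on that list were also higher in the SVF. The neutrophil attractant CXCL8 was 0.36, 0.10 and 0.34 in total and 628, 631 and 828 in the SVF (-9.10 ± 0.16). IL6 was listed at 0, 0 and 0.14 in total and was 144, 136 and 134 in the SVF, and the monocyte attractant CCL2 14.7, 21.8 and 53.0 against 734, 1181 and 941. Chaperone genes moved less: HSPA8 differed by -2.79 ± 0.18, HSP90AA1 by -1.45 ± 0.20 and HSPB1 by -0.81 ± 0.12. Such genes are known to respond to tissue dissociation among many stimuli; how either fraction was handled is not given in the sources used here, and handling and cell content cannot be told apart.

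Cell cycle genes were mostly higher in the SVF. Of 30 tested, 23 (76.7%, against 34.1% of all genes) were higher in the SVF, 11 of them by 2-fold or more, and none in total (median -0.73). MKI67, a marker of dividing cells, was 5.10, 3.46 and 3.42 in total and 5.64, 7.73 and 6.66 in the SVF (-0.63 ± 0.19, adjusted p = 0.0182). The count was 16 without total replicate 3 or without SVF replicate 2, and 28 with housekeeping scaling. The call of MKI67 was lost in both (adjusted p = 0.0628 and 0.058), without total replicate 2 (0.0685), with all 24 iBAT libraries in the fit (0.177) and with ADORA1 and LOC100009266 left out (0.052). The ribonucleotide reductase subunit RRM2 differed most, by -3.06 ± 0.25. Ribosomal protein genes leaned slightly toward the SVF, with a median of -0.39 against -0.07 over all genes. Of 31, 15 were higher in the SVF (48.4%, against 34.1% of all genes) and 3 in total (9.68%, against 30.4%). With housekeeping scaling the counts were 25 and 0. Without total replicate 1 or 2 the SVF count was 9 and 10.

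Secreted factors and receptors were found on both sides. KLB, the coreceptor of FGF21, was 49.3, 35.9 and 29.5 in total and 0.37, 0.19 and 0.96 in the SVF (4.70 ± 0.25), while FGFR1, the receptor it pairs with, was 24.6, 25.7 and 26.0 against 110, 132 and 84.1 (-2.03 ± 0.17, adjusted p = 2.32e-05). Among vessel factors VEGFA was higher in total, at 143, 130 and 175 against 53.3, 61.4 and 64.3 (1.3 ± 0.15, adjusted p = 0.000139), and its receptor KDR was not called (0.21 ± 0.41, adjusted p = 0.679). ANGPT1 was higher in total (3.15 ± 0.15) and its antagonist ANGPT2 in the SVF (-1.08 ± 0.16). For macrophages, CSF1 was 3.81 to 5.44 in total and 50.3 to 84.9 in the SVF (-3.48 ± 0.21, adjusted p = 4.05e-06), on the same side as its receptor CSF1R. For nerve, the neurotrophin receptor NGFR was higher in the SVF (-1.82), and NRG4, a neuregulin secreted by brown fat, was higher in total (2.08 ± 0.20). Of the 44 tested on this list, 20 were higher in the SVF (45.5%, against 34.1% of all genes). Another 7 were higher in total (15.9%, against 30.4%) and 17 were not called. Without the members that passed the filter through 1 fraction alone, 19 of 42 were higher in the SVF and 6 in total.

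The day 1 difference was then set against the same difference at 12 weeks. This contrast is taken within both tables, so an offset of a gene between the tables cancels in it where its levels are well above the 1 added before the log. For genes near 0 in some group, such as UCP1, DIO2, ADRB3 and LEP, the offset need not cancel. For such genes a change in level alone can also give a contrast. Values of all 12 libraries were scaled together, which moves the day 1 levels slightly. Of 13053 genes tested, 4443 (34.0%) were called, 2139 (16.4%) with a difference more toward total at day 1 and 2304 (17.7%) less so. As deposited, without scaling, the split was 1381 and 3603 (median contrast -0.32 in place of -0.04), and with housekeeping scaling 1215 and 3639 (-0.35).

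Of 30 thermogenic genes 22 were more toward total at day 1 and 3 less, with a median difference between fractions of 2.31 at day 1 and 0.33 at 12 weeks. Among the 22, DIO2 and ADRB3 passed the filter through total iBAT at day 1 alone, which largely set the sign of their contrasts. Levels near 0 at 12 weeks, as for these genes, pull the 12 week differences toward 0. UCP1 at 12 weeks was 3.59, 3.59 and 0.38 in total and 0, 0.05 and 0 in the SVF, and the contrast was 6.38 ± 0.84 (adjusted p = 0.000149). Its SVF mean was 0.513% of the total mean at day 1 and 0.709% at 12 weeks, so the ratio changed little. The contrast reflects the low 12 week levels, where the 1 added before the log flattens any difference. FABP3 changed sides: at 12 weeks it was 4.95, 3.30 and 5.14 in total and 54.0, 27.3 and 44.3 in the SVF, a difference of -2.94 against 4.69 at day 1 (contrast 7.63 ± 0.37, adjusted p = 2.51e-07). CIDEA did not; it was 1301, 1304 and 1551 against 59.4, 57.9 and 66.4 at 12 weeks (contrast 2.41 ± 0.45, adjusted p = 0.00157). LHX8 and ZIC1 were not called, with contrasts of -0.19 and 0.36, nor was PRDM16 (0.13; -0.20 with housekeeping scaling). Of the oxidative lists, 19 of 21 fatty acid oxidation genes, 18 of 19 citric acid cycle genes and 40 of 44 respiratory genes were more toward total at day 1.

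Adipocyte genes showed no common shift (median contrast 0.10). Of 30, 8 were more toward total at day 1 (16.4% of all genes were) and 5 less (17.7%). ADIPOQ was the clearest of the second kind. At 12 weeks it was 4635, 4847 and 4738 in total and 347, 524 and 278 in the SVF, so that the fractions, which overlapped at day 1, differed by 3.68 (contrast -3.48 ± 0.41, adjusted p = 6.13e-05). Its SVF level was near the same at both ages, with means of 467 and 383, while the total mean went from 519 to 4740. CEBPA, a regulator of mature adipocytes, had a contrast of -2.58 ± 0.21 (adjusted p = 4.23e-06), and LEP one of -4.52 ± 0.48 (adjusted p = 2.97e-05). For LEP the SVF mean was 2.94% of the total mean at day 1 and 2.04% at 12 weeks, so the ratio changed little. Its day 1 means were 0.925 in total and 0.0272 in the SVF, where the 1 added before the log flattens any difference. LIPE (0.43 ± 0.27) and PPARG (-0.87 ± 0.49) were not called. Nor were LPL (0.14 ± 0.29; -0.20 as deposited and -0.24 with housekeeping scaling) and FABP4 (0.34 ± 0.62; -0.04 with housekeeping scaling). Of 17 fatty acid synthesis genes 9 were less toward total at day 1 and 1 more, with medians of 0.85 at day 1 and 3.12 at 12 weeks.

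Among stromal lists, 28 progenitor genes had near medians at both ages (-2.02 and -2.06). Of these, 3 were called more toward total at day 1 (16.4% of all genes were) and 4 less (17.7%). DPP4 was one of them: at 12 weeks it was 5.87, 4.44 and 9.72 in total and 61.5, 50.9 and 55.0 in the SVF (contrast 3.29 ± 0.33, adjusted p = 2.12e-05). PI16 was not called (-0.48 ± 0.56), nor was DLK1 (0.01 ± 0.94; -0.27 as deposited, -0.10 with upper quartile and -0.41 with housekeeping scaling). CD163 differed by -3.03 at day 1 and 0.05 at 12 weeks, with 2.57 to 4.08 left in the SVF (contrast -3.08 ± 0.32, adjusted p = 2.39e-05). Of 17 mural genes 11 and of 14 Schwann cell genes 10 were further toward the SVF at day 1. Of 36 immediate early and stress genes 22 were as well and none the other way; FOS at 12 weeks was 152, 42.3 and 271 in total and 883, 940 and 1076 in the SVF (contrast -5.0 ± 0.67, adjusted p = 0.000158). In total iBAT the FOS mean went from 1.42 at day 1 to 155 at 12 weeks, so the smaller gap came with a higher level in whole tissue. Of 31 ribosomal protein genes 23 were more toward total at day 1, with medians of -0.42 and -1.42.

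**Figure D5:**
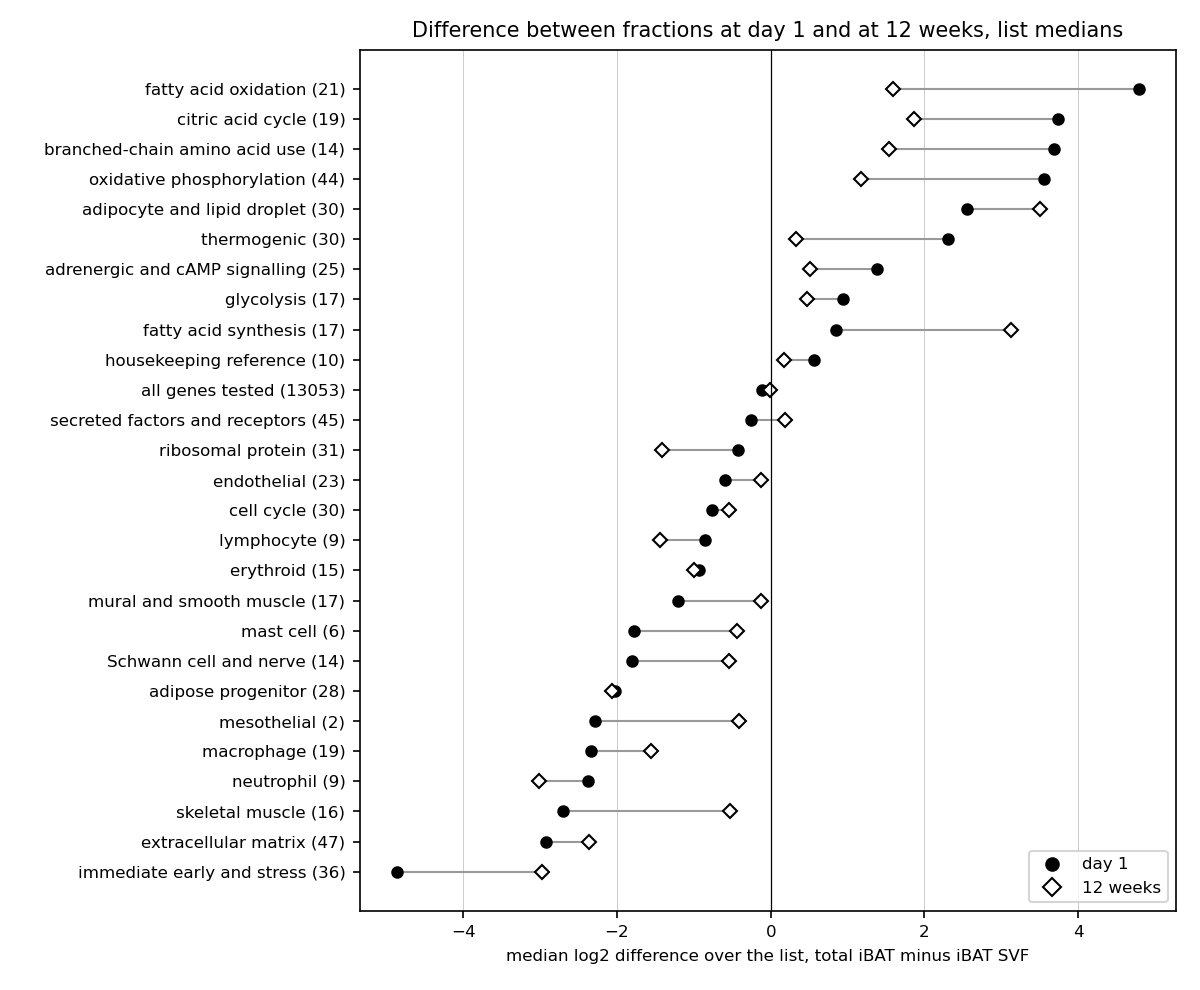
Median log2 difference between fractions (total iBAT minus iBAT SVF; horizontal axis) over the tested members of each list at day 1 (filled circles) and at 12 weeks (open diamonds), joined by a line, with the number of genes in brackets. The oxidative lists and the thermogenic list move toward 0 by 12 weeks, fatty acid synthesis moves from 0.85 to 3.12, and the progenitor list stays at -2.02 and -2.06. On the log2(FPKM + 1) scale, low levels at 12 weeks pull the differences of some thermogenic genes toward 0.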

How the data were processed

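Libraries of total iBAT and of the iBAT SVF at day 1 (3 each) and, for 1 contrast, at 12 weeks (3 each) were read from 2 tables that the authors deposited, 1 per fraction, in FPKM per the file headers. The submitters' processing notes name HISAT2 2.0.4, Bowtie2 2.2.5, DESeq2 and the build OryCun2.0, without roles. The counting tool and the annotation are not given in the sources used here. No read counts were used, so only relative depth is known, from ratios of low FPKM values: 13 of 15 pairs of libraries lay within 0.05 (log2) of a joint solution, and the largest deviation was 0.999. Each table was normalized apart.

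The tables were joined by gene identifier (19625 shared, with the same transcript identifiers in both). A RefSeq table of another rabbit assembly, used for names alone, matched 85.5% of the 21147 identifiers. Scaled values were transformed as log2(FPKM + 1) and tested with limma 3.58.1 in R 4.3.3 (moderated test with variance trend, two-sided), with Benjamini-Hochberg adjustment over all genes tested and calls under 0.05. The scripts were tested on simulated data.

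The members, the gene lists and the rule for named genes were chosen with earlier results of these data known. The rule names a list of genes, the 10 largest differences in each direction, the 3 most abundant members of each list and the 5 largest contrasts by age in each direction. Other genes named in the text were chosen after their values were seen. Alternatives were another pseudocount (0.1), filter (none, FPKM of 5), scaling, fold minimum, variance model and gene universe, the replicate number as a block, all 24 iBAT libraries in 1 fit, leaving out ADORA1 and LOC100009266 (8.52% to 9.92% of the summed FPKM in total, 2.40%, 2.02% and 8.71% in the SVF), and leaving out each library. Some named and listed genes are not reported here.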

Additional observations from a re-analysis of the deposited data

Results flagged for a closer look

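The difference between fractions at day 1 was itself different from that at 12 weeks for 32 named genes by limma's test of the contrast with Benjamini-Hochberg adjustment. Values given here are the day 1 difference minus the 12 week difference (log2, total minus SVF). Brown-fat effectors had positive contrasts: FABP3 7.63, GMPR 6.46, UCP1 6.38, GK 5.65, DIO2 4.78, PPARGC1A 3.76, ADRB3 3.52, COX7A1 3.48, CKMT2 3.13, CPT1B 2.89 and CIDEA 2.41. That of UCP1 reflects its low level at 12 weeks, since its SVF mean was 0.513% of total at day 1 and 0.709% at 12 weeks. DIO2 and ADRB3 passed the filter through total iBAT at day 1 alone, which largely set the sign of their contrasts. The lineage factor EBF2 had 1.12. QPCT, glutaminyl-peptide cyclotransferase, had 6.15 and changed sides, with a difference of 4.18 at day 1 and -1.97 at 12 weeks. Positive contrasts were also found for the droplet gene CIDEC, 1.52, and for DPP4, 3.29.

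Negative contrasts were found for adipocyte genes and secreted factors: LEP -4.52, ADIPOQ -3.48, CEBPA -2.58, VEGFA -0.79 and SFRP5, a Wnt-binding protein of fat, -5.17. That of LEP reflects its low level at day 1, since its SVF mean was 2.94% of total at day 1 and 2.04% at 12 weeks. SFRP5 was 1.33, 0.98 and 0.51 in total at day 1 and 62.8, 94.6 and 117 at 12 weeks, while the SVF stayed between 2.46 and 5.46. PEG10, an imprinted gene derived from a retrotransposon, changed sides with -5.99, being 59.4, 63.7 and 62.6 in the SVF at day 1 against 8.0, 8.16 and 10.4 in total, and 2.21 in the SVF against 33.0 in total on average at 12 weeks. Stromal and stress genes had FOS -5.0, EGR1 -5.08, CD163 -3.08, IL6 -2.49, CSF1R -1.80, MYH11 -1.80, VWF -1.76, TAGLN -1.65 and ACTA2 -1.31. IL6 was near 0 in total at both ages (means 0.048 and 0.221), so a change in its level alone can give its contrast. Its SVF mean was 141 at day 1 and 29.2 at 12 weeks. The contrast of PGAM2, muscle phosphoglycerate mutase, was -5.33 ± 1.55 (adjusted p = 0.0194), and its SVF values at day 1 were 51.8, 56.9 and 0.53. The call of VWF was lost with no filter on low FPKM and without any 1 of 5 libraries (total replicates 2 and 3 at day 1 and at 12 weeks, SVF replicate 1 at day 1), with adjusted p of 0.0538 to 0.0764.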

How the results depend on the processing

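At day 1 the count of 7844 genes moved beyond 1.5 times under 1 alternative, a minimum absolute log2 difference of 1, which left 4374; for the contrast by age the same minimum left 2724 of 4443. Leaving out 1 library gave 6415 to 7021 genes at day 1 and 3744 to 4218 for the contrast, from fewer genes tested as well as fewer libraries. Of 105 named genes called at day 1, 96 kept their direction and call under every alternative run, and 29 of 32 did so for the contrast. RAB7A, not called at day 1 (0.17, adjusted p = 0.270), was called with the opposite sign (-0.44, adjusted p = 0.0251) with housekeeping scaling, where the median of all genes shifts from -0.07 to -0.59; 6 named genes not called at day 1 changed sign while still not called under some alternative. The samples share replicate numbers, but the numbers were not taken to pair them, since deviations from the group means correlated at 0.19, 0.36 and 0.09 between same-numbered libraries; each library correlated best with its own number, as a hint from the data. With replicate number as a block, 7954 genes were called at day 1 and 4036 for the contrast. HBB2 (adjusted p = 0.00336), ALAS2 (0.00559) and CXCL12 (0.0125) were called with the block and not without it. Depth limits genes near an FPKM of 1, where 1 library decides whether they are tested.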

Other observations

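Several pairs of related genes were split between the fractions. They were chosen after their values were seen. Among acetyl-CoA carboxylases, ACACB, the mitochondrial form, was 57.8, 89.7 and 97.6 in total and 4.76, 3.54 and 4.25 in the SVF, while the cytosolic form ACACA was 5.67 to 9.29 and 4.63 to 5.76 and was not called (0.37 ± 0.19, adjusted p = 0.122). Among phosphodiesterases, PDE3B was 109, 151 and 149 against 1.42, 1.14 and 2.27, and PDE3A was 1.37 to 2.49 against 2.67 to 3.89, higher in the SVF (-0.58 ± 0.20, adjusted p = 0.0301). Hexokinase HK1 was higher in total (0.81 ± 0.19, adjusted p = 0.00569) and HK2 in the SVF. The carbonic anhydrase CA2, put on the erythroid list, was 43, 39.9 and 43 in total and 7.11, 1.97 and 10.5 in the SVF (2.72 ± 0.43, adjusted p = 0.000684), and the transferrin receptor TFRC was higher in total as well (1.84 ± 0.18), while the globin HBZ was higher in the SVF (-2.48 ± 0.61, adjusted p = 0.00699).

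Transcripts listed as markers of rarer cells were mostly higher in the SVF where they could be tested. Which cells they came from was not tested. Of 6 tested mast cell genes 1 passed the filter through the SVF alone, and the other 5 were called higher there (median -1.45), with histidine decarboxylase (HDC) at 0.22, 0.50 and 1.09 in total and 8.36, 6.63 and 8.46 in the SVF (-2.49 ± 0.22, adjusted p = 2.88e-05). Of 22 lymphocyte genes listed 15 were too low to test, and the pan-leukocyte gene PTPRC was 0.74 to 1.72 in total and 7.52 to 10.9 in the SVF. Only 2 of 10 mesothelial genes were tested; KRT7 was 45.2, 53.3 and 8.57 in the SVF and 0.75 to 1.74 in total. By the gene annotation text in the tables, 44 of 67 peroxisomal genes (65.7%) were higher in total and 3 in the SVF.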
